A study of Homo sapiens with 6 samples.

Results

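The TEAD factors, their coactivators and cofactors, and a pair of their classical target genes were examined in open chromatin of RH30 cells with and without MyoD. RH30 is an established fusion-positive rhabdomyosarcoma line of skeletal muscle character. The 10 genes were TEAD1, TEAD2, TEAD3, TEAD4, YAP1, WWTR1, VGLL2, VGLL3, CCN1 and CCN2. Overlapping peaks of 6 ATAC-seq libraries were merged into regions, and a region was assigned to a gene when its top summit lay in the gene body or within 50 kb of it (GENCODE version 44, hg38). The top summit is that of the peak with the highest fold enrichment in any library, so the positions and enrichments of the peaks themselves placed the regions. Of 105569 regions, 183 were assigned to the 10 genes. The genes were picked by name, with earlier results of the same libraries known.

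The vector group comprised 3 libraries of cells that received Cas9 and a scramble sgRNA, and the MyoD-deleted group 3 libraries of cells that received Cas9 and sgRNA targeting MyoD. No other treatment distinguished the groups, and all cells carried Cas9. The sample titles call the replicates biological, but they do not say whether these were separate transductions, cultures or clones, so the p-values measure the spread between these libraries. The labels name RH30, while the study in places also names a derivative with an IκBα super repressor, and whether these cells carried it is not settled by the labels.

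TEAD1 to TEAD4 are DNA-binding transcription factors that recognise the M-CAT element, first described in muscle gene promoters. They activate transcription together with YAP1 or with TAZ, the product of WWTR1, when these coactivators are in the nucleus. The Hippo kinases LATS1 and LATS2, which act downstream of the kinases STK3 and STK4, phosphorylate YAP1 and TAZ and thereby hold them in the cytoplasm. The vestigial-like proteins VGLL2 and VGLL3 bind TEAD factors on an overlapping surface, and VGLL2 is known from skeletal muscle. CCN1 and CCN2, formerly CYR61 and CTGF, encode secreted matricellular proteins and are commonly read as targets of YAP1 and TAZ.

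ATAC-seq marks open chromatin by insertion of adapters with the Tn5 transposase. Libraries held 63140 to 80608 peaks. The fragments covering each summit (pileup) were recovered from the deposited fold enrichment and −log10 p, and the smallest local background of a library, which follows its depth, was 2.22 to 3.41 fragments in vector and 2.27 to 2.35 in MyoD-deleted libraries. Height here means log2 of pileup over that background, set to 0 at the median of the 47885 regions called in all 6 libraries, so that 1 unit is a doubling. All differences in height are MyoD-deleted minus vector. Without the centring the median region was 0.23 higher in MyoD-deleted libraries. As a check of the label, all 6 libraries had a peak within 2 kb of the gene start at 7 of 7 skeletal muscle markers and at 0 of 6 markers of other lineages, although EPCAM had a peak there in 5 libraries and CDH5 in the 3 MyoD-deleted libraries. The muscle markers themselves moved with the groups, with 22 of 56 shared regions lower and 3 higher, and the region at the 5′ end of MYOD1, the targeted gene, changed by −0.49 (adjusted p = 0.0021 from limma). Their part in the results on the 10 genes was not tested.

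Open regions of the 10 genes changed in both directions. By centred height, YAP1, CCN1 and CCN2 had 9 regions that rose and 0 that fell, whereas TEAD4, WWTR1 and VGLL2 had 13 that fell and 0 that rose, although without centring 2 other regions of TEAD4 and 1 of WWTR1 were called higher. TEAD1 and VGLL3 had both kinds, and TEAD2 and TEAD3 had neither. The genes were sorted here by the direction of these same calls, so the split itself is not a result. No difference between genes was tested. Of the 183 regions, 86 were called in all 6 libraries, and of these 11 (12.8%) were higher and 17 (19.8%) lower at an adjusted p under 0.05 from limma over 47885 regions. Over all shared regions, 11.4% were higher and 12.8% lower. The median change was 0.02 over the 86 regions and 0.04 over all shared regions. A further 8 regions (4.37%) were gained, which means called in 3 of 3 MyoD-deleted and 0 of 3 vector libraries, and 2 (1.09%) were lost, the reverse, against 4.56% and 1.78% of all regions. The other 87 regions were called in part of the libraries in another pattern.

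Groups did not overlap at 27 of the 28 regions that passed the test. Among all 86 shared regions the MyoD-deleted libraries lay wholly above the vector libraries at 19 and wholly below at 23, where 19.8% and 18.1% of all shared regions did so. Fold enrichment divides by the local background of the peak caller. Its ranks within a library were turned into normal scores, so changes by rank are not in log2 units. By the rank of fold enrichment 4 regions were higher and 4 lower (4.12% and 4.67% of all shared regions). All 8 were among the 28 with the same direction. The higher were 1 each at YAP1, VGLL3, CCN1 and CCN2, and the lower 1 each at TEAD1, TEAD4, WWTR1 and VGLL3. At VGLL2 0 passed by rank. Without centring, 23 were higher and 10 lower, against 24.7% and 8.03% of all shared regions. All 11 rises and 10 of the 17 falls passed in that scaling too. Leaving out the centring raised every change by the same amount, which favours rises over falls. That the rises passed again is therefore no separate support for them.

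**Figure D1:**
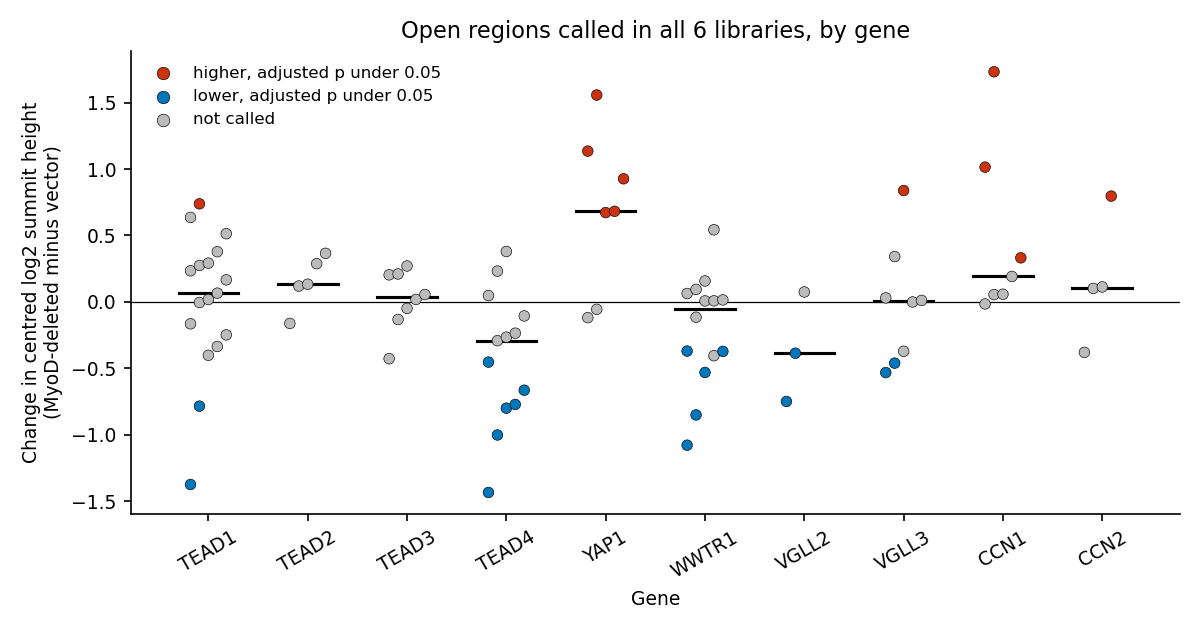
Change in centred log2 summit height (MyoD-deleted minus vector) of each of the 86 regions called in all 6 libraries, by gene; bars are the medians of a gene's regions, and red and blue points passed an adjusted p under 0.05. YAP1 stands highest, with a median of 0.68 and 5 of 7 regions higher, and TEAD4 has 6 of 13 regions lower.

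The regions at the 5′ ends of these genes did not pass the test. For TEAD1, TEAD2, TEAD3, TEAD4, YAP1, VGLL2, VGLL3, CCN1 and CCN2 a region with its summit within 2 kb of the annotated 5′ end was called in all 6 libraries, and their changes ran from −0.38 to 0.20. The highest region was that of TEAD2, which overlaps the neighbouring gene DKKL1, with heights of 3.09, 3.10 and 3.18 in vector and 3.10, 3.35 and 3.32 in MyoD-deleted libraries. The lowest region was that of CCN2, at 0.748, 1.00 and 1.34 in vector and 0.60, 0.60 and 0.745 in MyoD-deleted libraries. At CCN2 the groups just failed to overlap, with the highest MyoD-deleted library barely under the lowest vector library, and the change of −0.38 missed the threshold (standard error 0.14, adjusted p = 0.0659 from limma). At the other 8 genes the groups overlapped. None of the 28 called regions lay within 2 kb of the 5′ end of any protein-coding gene, although 15 of the 86 shared regions did. Such regions were seldom called anywhere, with 3.83% higher and 3.60% lower among 10623, compared with 13.5% and 15.5% among the 37262 farther away.

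**Figure D2:**
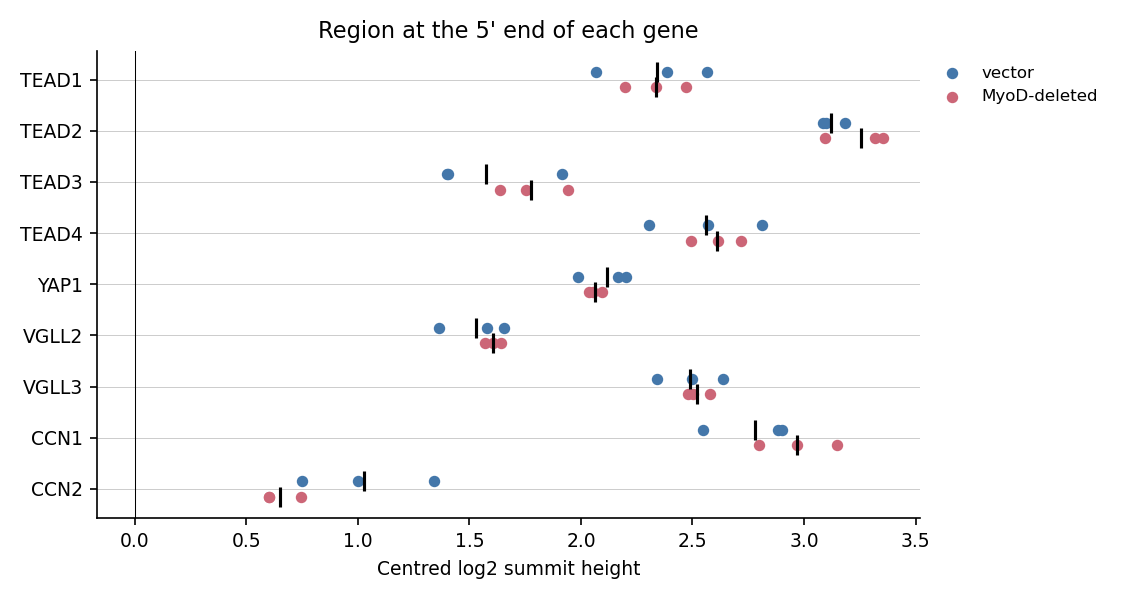
Centred log2 height of the region at the 5′ end of 9 genes in each of the 6 libraries; points are libraries and black bars group means. The groups overlap at every gene but CCN2, where the highest MyoD-deleted and the lowest vector library nearly touch.

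TEAD4 (ENSG00000197905.10, chr12:2959330-3040676, plus strand) encodes a TEAD factor with known roles in myogenic differentiation. In MyoD-deleted cells 6 of its 13 shared regions fell and 0 rose. The largest fall was in intron 3, 44.4 kb from the 5′ end, at chr12:3002946-3004128. The bases around its summit and around that of a lost region upstream of the gene are shown because both hold E boxes, the letters that MyoD and related factors can bind. In all sequences here, 100 bases on each side of the summit are printed from the plus strand of hg38, and capitals mark 4 short motifs on either strand, so that each may also stand as its reverse complement. The TEAD core is CATTCC, the symmetrical E box is CAGCTG, a second form of E box is CAGGTG and the AP-1 site is TGACTCA.
TEAD4 intron 3, fell, chr12:3003659-3003859: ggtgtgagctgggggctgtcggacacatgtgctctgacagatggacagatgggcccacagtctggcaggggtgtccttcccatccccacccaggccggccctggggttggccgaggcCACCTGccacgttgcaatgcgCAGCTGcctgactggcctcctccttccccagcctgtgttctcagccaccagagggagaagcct
TEAD4 upstream, lost, chr12:2949495-2949695: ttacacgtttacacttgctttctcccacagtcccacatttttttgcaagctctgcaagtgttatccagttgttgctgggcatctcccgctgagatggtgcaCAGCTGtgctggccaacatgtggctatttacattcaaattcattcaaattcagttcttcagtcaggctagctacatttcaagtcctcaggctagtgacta

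At the intron 3 region the pileups were 239, 198 and 270 fragments in vector and 75, 75 and 100 in MyoD-deleted libraries. Heights were 1.56, 1.82 and 2.03 in vector and 0.37, 0.18 and 0.56 in MyoD-deleted libraries. All 3 MyoD-deleted libraries lay far below all 3 vector libraries. The change was −1.43 (standard error 0.14, adjusted p = 1.8e-06 from limma), which is a fold of 0.37 in background-scaled pileup before the log, and the region also fell by rank (adjusted p = 0.0139 from limma). The local background of the peak caller moved with it, from 22.8 to 33.6 fragments in vector to 13.6 to 17.4 in MyoD-deleted libraries. Fragments of the peak itself may count toward that background, so this is not a separate change in the chromatin around it.

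Described with its values already known, as are all regions here beyond the most changed of each gene, the region in intron 10 at chr12:3032874-3034563 gave the second largest fall at TEAD4. It stood at 2.31, 2.14 and 2.27 in vector and 1.28, 1.15 and 1.30 in MyoD-deleted libraries. The groups were well apart, at 0.499 times the vector level in background-scaled pileup (adjusted p = 3.1e-06 from limma, and 0.0508 by rank). A region in intron 5 at chr12:3013636-3014867 went from 2.12, 2.14 and 2.25 to 1.48, 1.30 and 1.74. It too was lower in every MyoD-deleted library (change −0.66, adjusted p = 0.00039 from limma, and 0.191 by rank).

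Downstream of TEAD4, toward the 5′ end of TSPAN9, 3 more regions fell, by 0.77 at 9.38 kb, 0.80 at 20.8 kb and 0.45 at 32.9 kb from the gene's end. The last of these (adjusted p = 0.0415 from limma) was the only one of the 28 called regions at which the groups overlapped, and it did not pass without centring (adjusted p = 0.214 from limma). None of these 3 passed by rank (adjusted p = 0.0911, 0.288 and 0.0738 from limma). The lost region, 9.74 kb upstream of the 5′ end, had pileups of 29, 31 and 33 fragments in the vector libraries. A gained region 25.5 kb downstream had 25, 21 and 21 fragments in the MyoD-deleted libraries. The 5′ end itself differed by 0.05 (adjusted p = 0.818 from limma), with 2.30, 2.57 and 2.81 in vector and 2.72, 2.49 and 2.61 in MyoD-deleted libraries. The median height over the 13 shared regions was 1.34, 1.53 and 1.52 in vector and 0.60, 0.61 and 0.68 in MyoD-deleted libraries. The groups did not overlap (two-sided exact permutation test over the 20 assignments of libraries, p = 0.1, the smallest that 3 against 3 can give), whereas the median of the regions' own changes was smaller, at −0.29.

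**Figure D3:**
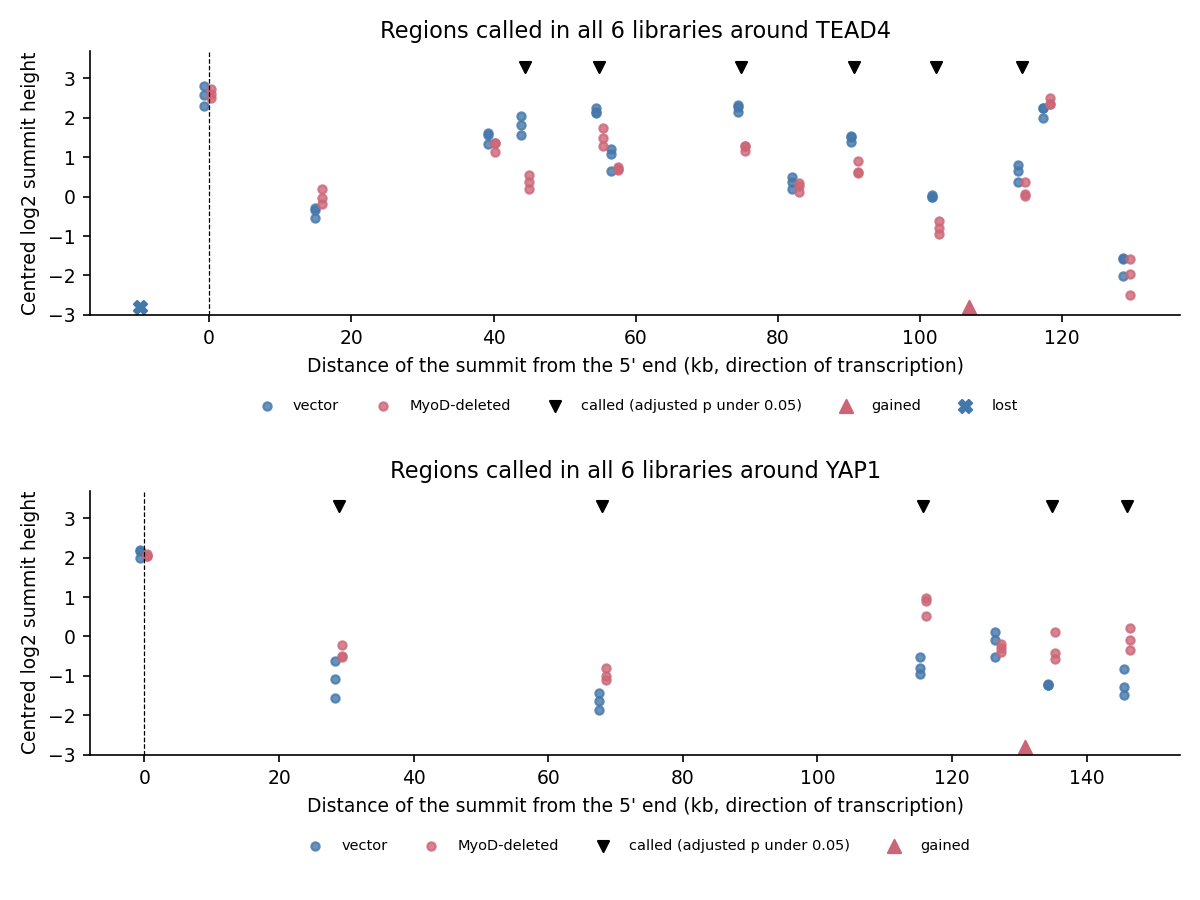
Centred log2 height in each library of the shared regions around TEAD4 (top) and YAP1 (bottom), against the distance of the summit from the 5′ end in kb; black triangles mark regions that passed the test, and symbols at the lower edge give the position, not the height, of gained and lost regions. Around TEAD4 the called regions are lower in MyoD-deleted libraries and around YAP1 they are higher, while at both 5′ ends the points of the groups mix.

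TEAD1 (ENSG00000187079.20, chr11:12674421-12944737, plus strand), a broadly expressed family member with long introns, had the most regions of the 10 genes, 37, of which 17 were shared. In its intron 3, at chr11:12777138-12778480, heights were 0.98, 1.37 and 1.08 in vector and −0.10, −0.72 and 0.14 in MyoD-deleted libraries. The MyoD-deleted libraries were all lower but spread over a wide range, and the change was −1.37 (standard error 0.19, adjusted p = 4.4e-05 from limma, and 0.162 by rank). A second region of intron 3, at chr11:12845561-12847469, fell by 0.78 and also by rank (adjusted p = 0.0172 from limma). In intron 9 one region rose, at chr11:12888474-12889597, from −0.53, −0.81 and −0.62 to 0.21, 0.28 and −0.23. The groups were again separate (change 0.74, standard error 0.18, adjusted p = 0.0059 from limma, and 0.254 by rank). A gained region 32.0 kb upstream was faint, with 10, 10 and 14 fragments.

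At TEAD2 and TEAD3, 0 of 5 and 0 of 8 shared regions passed the test, with changes from −0.16 to 0.37 and from −0.43 to 0.27. Without centring 1 region of TEAD2 and 2 of TEAD3 were higher, among them the 5′ end of TEAD3 (adjusted p = 0.0297 from limma). The region lost near TEAD2 lay 42.0 kb beyond its 3′ end inside SLC6A16, with 37, 25 and 36 fragments in vector libraries. Over the 4 TEAD genes 1 of 43 shared regions rose (2.33%) and 8 fell (18.6%), beside 11.4% and 12.8% of all shared regions. Without centring 11 were higher and 7 lower, beside 24.7% and 8.03% of all shared regions. The balance of rises and falls thus moved with the scaling over all shared regions as well as over this family. Of the 6 falls at TEAD4, 5 passed without centring and 1 by rank.

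YAP1 (ENSG00000137693.14, chr11:102110447-102233424, plus strand) encodes the coactivator that carries the activation domain for TEAD factors. In MyoD-deleted cells 5 of its 7 shared regions were higher and 1 region was gained. The strongest was in intron 7 at chr11:102225665-102226914, 116 kb from the 5′ end. The bases around its summit are shown with those of the gained region and of a region 23 kb beyond the gene, as these hold a TEAD core, an AP-1 site, and both. The TEAD core of the intron 7 region lay at −93 bases from the summit, near the edge of the bases printed.
YAP1 intron 7, rose, chr11:102226022-102226222: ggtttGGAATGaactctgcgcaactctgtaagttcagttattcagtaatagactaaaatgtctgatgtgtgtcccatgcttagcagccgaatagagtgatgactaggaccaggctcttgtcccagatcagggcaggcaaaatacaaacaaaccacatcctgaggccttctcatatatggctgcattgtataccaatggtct
YAP1 downstream, gained, chr11:102241145-102241345: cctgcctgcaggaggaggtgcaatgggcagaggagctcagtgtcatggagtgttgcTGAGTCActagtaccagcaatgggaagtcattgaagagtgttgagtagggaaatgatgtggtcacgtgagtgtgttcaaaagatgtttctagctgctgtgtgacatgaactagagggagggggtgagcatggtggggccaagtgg
YAP1 downstream, rose, chr11:102256319-102256519: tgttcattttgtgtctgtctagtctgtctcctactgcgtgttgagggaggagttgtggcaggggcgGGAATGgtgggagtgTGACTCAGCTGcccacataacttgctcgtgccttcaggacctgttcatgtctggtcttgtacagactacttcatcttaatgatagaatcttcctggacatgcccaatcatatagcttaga
In the last sequence the AP-1 site and the E box share letters.

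At the intron 7 region pileups were 42, 32 and 46 fragments in vector and 83, 124 and 133 in MyoD-deleted libraries. Heights were −0.95, −0.81 and −0.52 in vector and 0.52, 0.91 and 0.97 in MyoD-deleted libraries. The region was below the median region in every vector library and above it in every MyoD-deleted library. The change was 1.56 (standard error 0.17, adjusted p = 6.2e-06 from limma), a fold of 2.94 in background-scaled pileup, and the region also rose by rank (adjusted p = 0.0173 from limma).

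Regions of introns 2 and 3, at chr11:102138293-102139757 and chr11:102178074-102178930, rose by 0.67 and 0.68 (adjusted p = 0.0381 and 0.0252 from limma). They were less open, with 18 to 57 fragments in all libraries, and did not pass by rank (adjusted p = 0.245 and 0.0711 from limma). Past the end of the gene, in the interval toward BIRC3, the region whose letters are shown went from −0.82, −1.49 and −1.29 to −0.08, 0.22 and −0.33. It was higher in every MyoD-deleted library (change 1.13, adjusted p = 0.00076 from limma, and 0.12 by rank). Another, 11.8 kb past the gene, rose by 0.93 in height, but its rank changed by −0.02, and its local background was 5.73 to 6.78 fragments in MyoD-deleted and 2.68 to 4.62 in vector libraries. The gained region, 7.82 kb past the gene, had 28, 39 and 26 fragments. BIRC3 has the nearest 5′ end for all of these but the intron 2 and intron 3 regions.

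The 5′ end of YAP1 stood at 1.99, 2.16 and 2.20 in vector and 2.10, 2.04 and 2.05 in MyoD-deleted libraries, a change of −0.06 (adjusted p = 0.736 from limma). The groups overlapped there. The median height over the 7 shared regions was −0.82, −1.22 and −1.09 in vector and −0.40, 0.11 and −0.33 in MyoD-deleted libraries. These did not overlap (two-sided exact permutation test, p = 0.1), and the difference was 0.83. Over the regions in the body or within 10 kb alone it was 0.36.

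WWTR1 (ENSG00000018408.15, chr3:149517235-149736714, minus strand) encodes TAZ, the paralogue of YAP1. Of its 14 shared regions 5 fell, all in introns 2 and 3, and none rose, while 3 regions nearer its farthest annotated 5′ end were gained. The largest fall was at chr3:149592432-149593407 in intron 2. The bases around its summit, which hold 2 E boxes at −84 and −50 bases from it, are shown.
WWTR1 intron 2, fell, chr3:149592837-149593037: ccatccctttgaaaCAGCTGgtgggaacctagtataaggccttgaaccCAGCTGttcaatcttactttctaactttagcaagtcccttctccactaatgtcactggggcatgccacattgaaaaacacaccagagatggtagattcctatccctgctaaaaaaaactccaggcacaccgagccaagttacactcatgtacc

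This region had heights of 0.54, 0.76 and 0.78 in vector and −0.33, −0.69 and −0.13 in MyoD-deleted libraries. It was above the median region in the vector group and below it in the MyoD-deleted group. The change was −1.08 (standard error 0.17, adjusted p = 0.00013 from limma), a fold of 0.47 in background-scaled pileup, with an adjusted p of 0.0106 by rank. The other 4 fell by 0.37 to 0.85 with adjusted p from 0.012 to 0.0365 (limma), and none of them passed by rank. Without centring only 2 of the 5, the largest fall and the intron 3 region, remained lower at an adjusted p under 0.05.

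The canonical transcript of WWTR1 starts well inside the annotated gene, and the region over that start, chr3:149657569-149659127, had heights of 2.28, 2.37 and 2.41 in vector and 2.43, 2.36 and 2.31 in MyoD-deleted libraries. The groups overlapped and differed by 0.01 (adjusted p = 0.933 from limma). The 3 gained regions lay upstream of it, within the annotated gene, and were faint. The one over the farthest annotated 5′ end, chr3:149736107-149736934, had 16, 12 and 16 fragments, and the others had 15 to 24. Their backgrounds were the lowest of each library, 2.27 to 2.35 fragments. The median height over the 14 shared regions of WWTR1 differed by −0.10 (p = 0.3 in the exact permutation test), and without centring by 0.10.

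VGLL2 (ENSG00000170162.14, chr6:117265558-117273565, plus strand) encodes a TEAD cofactor of skeletal muscle, and 2 of its 3 shared regions fell. One lay 33.1 kb upstream, at chr6:117232138-117233567, and is shown for its 2 E boxes.
VGLL2 upstream, fell, chr6:117232369-117232569: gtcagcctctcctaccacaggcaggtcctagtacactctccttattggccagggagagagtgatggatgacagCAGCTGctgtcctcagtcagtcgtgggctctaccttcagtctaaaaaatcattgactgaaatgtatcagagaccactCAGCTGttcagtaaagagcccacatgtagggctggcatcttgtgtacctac
Its heights were 1.36, 1.17 and 1.33 in vector and 0.99, 0.96 and 0.76 in MyoD-deleted libraries. The groups were separate, with a change of −0.39 (adjusted p = 0.0238 from limma) that did not pass without centring (adjusted p = 0.286 from limma). The other, over exon 4 at chr6:117272280-117273382, went from 0.92, 0.91 and 0.59 to 0.10, −0.37 and 0.44. It was lower in every MyoD-deleted library (change −0.75, standard error 0.18, adjusted p = 0.005 from limma, 0.0948 by rank) and passed without centring (adjusted p = 0.016 from limma).

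VGLL3 (ENSG00000206538.9, chr3:86876388-86991149, minus strand), a paralogous TEAD cofactor, changed in both directions. In intron 2, at chr3:86973485-86974095, heights were −0.34, −0.52 and −0.80 in vector and 0.21, 0.16 and 0.48 in MyoD-deleted libraries. Every MyoD-deleted library was above the median region and every vector library below it (change 0.84, standard error 0.17, adjusted p = 0.0016 from limma, 0.0326 by rank). A region 67.8 kb into the gene, at chr3:86922554-86923731, fell by 0.53 (adjusted p = 0.011 from limma, 0.447 by rank), and one 6.60 kb past its 3′ end fell by 0.46 (adjusted p = 0.0121 from limma, 0.0422 by rank). Neither of these falls passed without centring. The first was also lost without vector replicate 2 (change −0.47, adjusted p = 0.0682 from limma) and without MyoD-deleted replicate 1 (−0.43, adjusted p = 0.0733). A gained region in intron 3 had 21, 16 and 20 fragments.

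CCN1 (ENSG00000142871.18, chr1:85580761-85584589, plus strand) gave the largest rise of all 86 shared regions, and 3 of its 7 shared regions were higher with none lower. That region lay 35.8 kb upstream of CCN1, at chr1:85544269-85545518, inside the gene DDAH1, whose 5′ end is nearer. It is shown together with the region that rose upstream of CCN2. The first holds none of the letters searched and the second an AP-1 site.
CCN1 upstream, rose, chr1:85544814-85545014: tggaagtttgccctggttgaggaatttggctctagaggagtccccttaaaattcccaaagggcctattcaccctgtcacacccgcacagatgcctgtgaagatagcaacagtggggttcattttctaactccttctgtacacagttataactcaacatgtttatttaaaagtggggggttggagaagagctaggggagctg
CCN2 upstream, rose, chr6:131966561-131966761: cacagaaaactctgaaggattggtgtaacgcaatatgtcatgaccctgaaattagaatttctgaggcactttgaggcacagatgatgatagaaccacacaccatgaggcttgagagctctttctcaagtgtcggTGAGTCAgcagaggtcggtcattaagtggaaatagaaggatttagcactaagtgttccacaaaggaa

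At the upstream CCN1 region pileups were 37, 24 and 34 fragments in vector and 97, 87 and 114 in MyoD-deleted libraries. Heights were −1.13, −1.22 and −0.96 in vector and 0.74, 0.40 and 0.74 in MyoD-deleted libraries. The groups lay on opposite sides of the median region. The change was 1.73 (standard error 0.17, adjusted p = 2.2e-06 from limma), a fold of 3.32 in background-scaled pileup, with an adjusted p of 0.0301 by rank.

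A second region inside DDAH1, 11.8 kb upstream of CCN1, rose by 1.01 (standard error 0.20, adjusted p = 0.001 from limma, 0.595 by rank), from −1.39, −1.42 and −1.65 to −0.40, −0.65 and −0.36. The groups did not overlap. A region 26.6 kb downstream of the 5′ end was already among the highest, at 2.78, 2.60 and 2.52 in vector, and rose to 2.91, 3.07 and 2.91 (change 0.33, adjusted p = 0.0155 from limma, 0.539 by rank). The gained region 48.4 kb downstream of the 5′ end, at chr1:85628589-85629603, was the highest of the 8 gained regions, with 98, 102 and 130 fragments and heights of 0.76, 0.63 and 0.93. It was absent from the peak list of every vector library although it stood above the median shared region in every MyoD-deleted one. The 5′ end of CCN1 changed by 0.19 (adjusted p = 0.235 from limma), with 2.55, 2.90 and 2.88 in vector and 2.80, 2.97 and 3.15 in MyoD-deleted libraries, and passed only without centring (change 0.38, adjusted p = 0.0333 from limma).

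CCN2 (ENSG00000118523.6, chr6:131948176-131951372, minus strand) had 1 region that rose among 4, at chr6:131966428-131967213, 15.3 kb upstream. Its pileups were 32, 17 and 20 fragments in vector and 32, 36 and 43 in MyoD-deleted libraries. Heights were −1.34, −1.72 and −1.72 in vector and −0.86, −0.87 and −0.66 in MyoD-deleted libraries. The region was below the median region in all 6 and higher in each MyoD-deleted than in each vector library (change 0.80, standard error 0.21, adjusted p = 0.0087 from limma, 0.0229 by rank). The rise upstream and the lower values at the 5′ end stood in opposite directions within this gene.

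**Figure D4:**
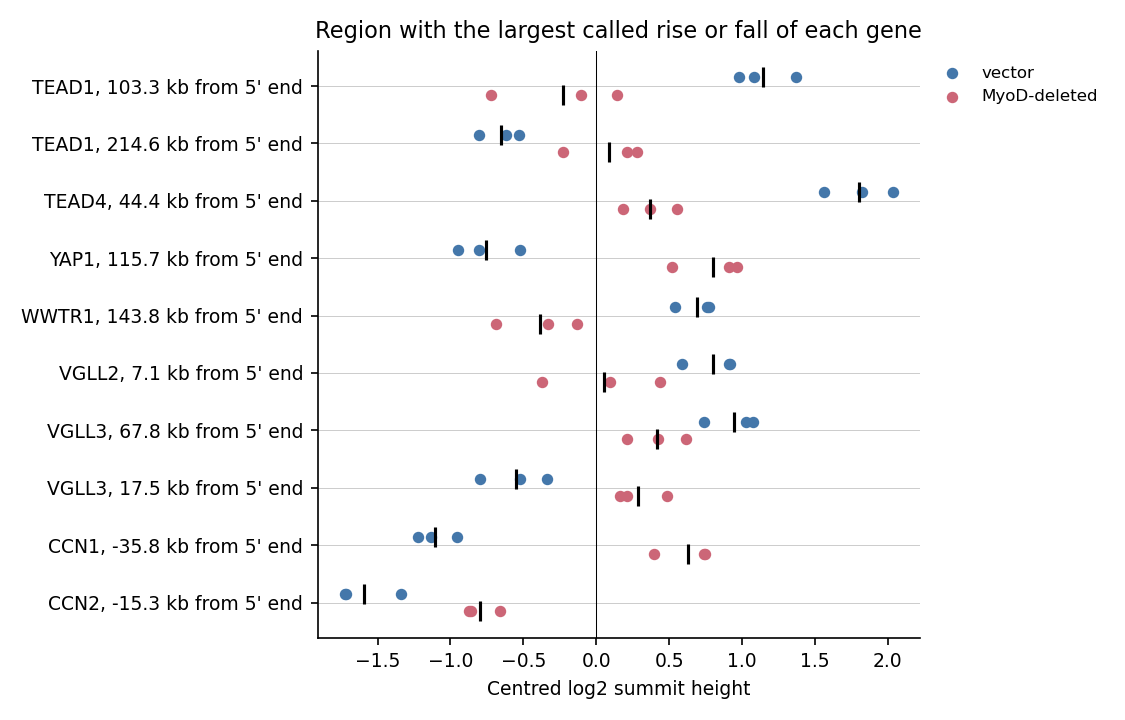
Centred log2 height in each library of the region with the largest called rise and the largest called fall of each gene; points are libraries, black bars are group means and labels give the distance from the 5′ end in kb. In all 10 regions the groups are apart, with CCN1 and YAP1 moving farthest up and TEAD4 and TEAD1 farthest down.

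Just inside the 50 kb limit, TEAD4 had a shared region at 47.7 kb that changed by −0.29 and CCN1 its gained region at 44.5 kb from the gene. Just outside, CCN1 had a region at 53.4 kb that changed by 1.22 and VGLL2 one at 58.3 kb that changed by 0.39.

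Motif letters were counted at the summits. Within 100 bp of the top summit and on either strand, the TEAD core CATTCC lay in 36 of the 183 regions, CAGCTG in 32, CAGGTG in 27 and TGACTCA in 37, beside 17.3%, 25.1%, 15.9% and 17.9% of all 105569 regions. CAGCTG lay in 8 of the 17 regions that fell and in 1 of the 11 that rose, and over all shared regions in 57.1% of those that fell and 15.9% of those that rose. CAGGTG lay in 2 of the 17 that fell and 0 of the 11 that rose, beside 29.9% and 7.08%. The AP-1 site lay in 4 of the 11 that rose and 2 of the 17 that fell, beside 33.0% and 14.5% over all shared regions. The TEAD core lay in 2 of the 11 and 2 of the 17, beside 24.3% and 16.6%. At TEAD4, 5 of the 7 regions that fell or were lost held an E box of either form. Over all 26 TEAD4 regions CAGCTG lay in 7 and CAGGTG in 9, and a region with both, like the largest fall, counts under each. CAGGTG alone lay in 34.6% of TEAD4 regions, beside 15.9% of all regions. The share with either form was not counted over all TEAD4 regions or over all regions. The 5 of 7 therefore has no like comparison here and cannot be read as an excess of E boxes among the regions that changed. At YAP1, 4 of the 6 that rose or were gained held an AP-1 site, against 6 of all its 17 regions. These are untested descriptions of few regions, and a match does not show that a factor was bound.

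Other genes of the pathway were taken as lists. Among 15 Hippo kinases and scaffold genes, 17 of 120 shared regions rose (14.2%), 10 fell (8.33%), 14 of 240 were gained (5.83%) and 2 lost (0.833%), beside 11.4%, 12.8%, 4.56% and 1.78% over all regions. By rank 4 were higher and 5 lower, and without centring 40 and 4. Over all shared regions these shares were 4.12% and 4.67% by rank, and 24.7% and 8.03% without centring. LATS2, a kinase that inhibits YAP1 and TAZ, had 3 regions that rose, the largest in intron 2 at chr13:20997400-20998300, from a mean height of −0.46 ± 0.24 in vector to 0.87 ± 0.15 in MyoD-deleted libraries (SD, n = 3, adjusted p = 1.4e-05 from limma). Regions near the upstream kinases STK4 and STK3 went in opposite directions, with 4 of 5 shared regions higher at STK4 and 4 of 8 lower at STK3. The largest rise at STK4, 1.18, lay downstream of the gene, where KCNS1 has the nearest 5′ end (adjusted p = 0.0174 by rank, limma). The largest fall at STK3 was −1.72 (adjusted p = 0.0031 by rank, limma). It lay outside the canonical transcript, 540 kb from the 5′ end of STK3, and KCNS2 has the nearest 5′ end. WWC1, a scaffold for these kinases, had 5 of 10 shared regions higher and 7 gained, the most of the list. Its paralogue WWC2 had 1 of 9 shared regions higher and 1 lower. The lower one was the second largest fall of the list, −1.42 in a region upstream of WWC2.

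Among 12 other regulators of YAP1 and TEAD factors, 10 of 89 shared regions rose (11.2%) and 7 fell (7.87%), beside 11.4% and 12.8% over all shared regions. By rank 2 were higher and 3 lower, beside 4.12% and 4.67% of all shared regions, and without centring 23 and 5, beside 24.7% and 8.03%. Of the 179 regions 4 were gained (2.23%) and 1 lost (0.559%), beside 4.56% and 1.78% of all regions. The rises included 4 at PTPN14, a phosphatase that binds YAP1, up to 1.01 in intron 1 (adjusted p = 0.0018 from limma), and none of the 3 largest passed by rank. AMOTL1, a junction protein that retains YAP1, had falls of −1.22 upstream and −0.94 in intron 1 (adjusted p = 0.0382 and 0.273 by rank, limma) and also 1 region that rose. SCRIB, a polarity scaffold, had a fall of −1.34 downstream, where FAM83H has the nearest 5′ end. VGLL4, a TEAD cofactor that competes with YAP1, had 2 of 11 shared regions higher and none lower.

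Among 17 other genes commonly listed as YAP1 and TAZ targets, 26 of 157 shared regions rose (16.6%) and 11 fell (7.01%), beside 11.4% and 12.8% over all shared regions. The largest rise was 4.32 kb upstream of CCDC80, from −0.53 ± 0.48 to 1.05 ± 0.36 (SD, n = 3, change 1.57, adjusted p = 4.7e-05 from limma, 0.0775 by rank). Regions in intron 1 of DOCK5 and of TGFB2 rose by 1.33 and 1.20 (adjusted p = 0.0233 and 0.0759 by rank, limma), and 2 other regions of TGFB2 fell. CRIM1 had 6 of 17 shared regions higher and 1 lower. The largest falls were 27.2 kb upstream of NUAK2 by 1.12, in intron 13 of CRIM1 by 1.05 and 38.4 kb upstream of GADD45A by 0.84. The nearest 5′ ends to those of NUAK2 and CRIM1 were of KLHDC8A and FEZ2. By rank 4 of its 157 shared regions were higher and 4 lower, where 4.12% and 4.67% of all shared regions were. Without centring 58 were higher and 6 lower, beside 24.7% and 8.03%. Of its 301 regions 12 were gained (3.99%) and 6 lost (1.99%), beside 4.56% and 1.78% of all regions. The median change over its shared regions was 0.12, beside 0.04 over all shared regions.

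Peak lists give openness and no RNA, so none of these values says whether a gene's transcription changed. A region absent from a list can lie just under the peak caller's threshold, which limits the gained and lost regions of low pileup.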

How the data were processed

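ATAC-seq libraries of vector cells (3) and MyoD-deleted cells (3) were compared. Reads were mapped by the authors to hg38 with Rsubread, proper pairs were kept, and peaks were called per library with MACS2. The deposited score is 10 times the −log10 q. The deposited fold enrichment is the ratio of pileup at the summit over local background, and the deposited −log10 p and −log10 q refer to the same summit. The study's exclusion list and its DESeq2 test of read counts were not used here. The submitters' notes also name bcl2fastq 2.20 and FastQC.

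Pileups were recovered from fold and p for 100% of peaks, under the peak caller's Poisson model. Read depth is not in the lists, so the smallest background stood in for it. The 1 mitochondrial peak per library was left out. Touching peaks were merged, with the same count from bedtools 2.31.1. Heights were compared with limma 3.58.1 (lmFit, eBayes with trend, R 4.3.3), with Benjamini-Hochberg adjustment over 47885 regions, and gene medians with exact permutation tests. The steps were tested on simulated data. With 200 of 47885 regions shifted, limma recovered 0 at a shift of 0.5, 108 at 1.0 and 170 at 1.5. In the data 24.2% of the shared regions were called, so the adjustment was stricter in the simulation. Its shares are not the sensitivity in the data, where some changes smaller than 0.5 passed. A region that did not pass can still differ between the groups. Distances run from the GENCODE 44 gene's 5′ end, and introns follow its canonical transcript. Scripts ran in Python 3.11.15 (pandas 2.3.3, scipy 1.17.1, numpy 2.4.6, matplotlib 3.10.9, pysam 0.24.0) with samtools 1.23.1.

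The members, lists and tests were chosen with earlier results of these data known. Named were, for each gene, its 5′ end region, the called regions with the largest rise and fall, and the highest gained and lost regions, and for each other list the 3 largest called rises and falls. Genes or regions beyond these were named after their values were seen. Alternatives were other centrings, ranks, peak filters, overlaps, gene windows, a replicate block and each library left out.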

Additional observations from a re-analysis of the deposited data

How the results depend on the processing

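The lists hold no read counts, so depth limits the faintest regions, and 3 libraries per group allow no exact p below 0.1. Replicate numbers did not pair the libraries (correlations of same-numbered deviations −0.04, −0.20 and 0.09), and with the replicate block 10 member regions were higher and 17 lower. The block changed no call of a named region. The main counts were 11 higher, 17 lower, 8 gained and 2 lost. Without centring they were 23 higher and 10 lower, and over all shared regions 11821 and 3843 (75.5% of calls higher, against 5438 and 6149, or 46.9%, with centring). By rank of fold enrichment there were 4 of each, and 1973 and 2234 over all shared regions. With peaks covering at least 50% of a region, 4 were lost. Within 10 kb of a gene, 5 were higher, 5 gained and 1 lost, and by nearest 5′ end 8 were lower and 1 lost. With each library left out, 8 to 13 were higher, 12 to 19 lower, 8 to 18 gained and 2 to 3 lost. The 18 gained came without vector replicate 1, against 10 and 8 without vector replicates 2 and 3, and the cause was not tested. Other counts stayed within 1.5 times.

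Median heights over the regions of a gene that were near 0 changed sign under some settings. That of TEAD1, 0.06, became −0.0025 with the peak nearest the top summit and −0.35 within 10 kb, and ran from −0.074 to 0.18 with a library left out. That of TEAD2, 0.05, ran from −0.047 to 0.13, and that of TEAD3, 0.07, from −0.019 to 0.15 with a library left out and became −0.033 within 10 kb. That of WWTR1, −0.10, became 0.10 without centring. That of CCN2, 0.28, became −0.38 within 10 kb, which is the value of its 5′ end region alone. Those of TEAD4, YAP1, VGLL2, VGLL3 and CCN1 kept their sign under every alternative run.

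Among regions at 5′ ends, none of them called, the change at TEAD1, −0.0045, became 0.19 without centring, 0.19 by rank of fold enrichment and 0.013 by rank of −log10 p, and ran from −0.14 to 0.11 with a library left out. At TEAD4 0.05 became −0.024 by rank of fold enrichment and ran from −0.082 to 0.17. At YAP1 −0.06 became 0.14 without centring, 0.031 by rank of fold enrichment and 0.0090 by rank of −log10 p. At VGLL2 0.07 became −0.012 by rank of fold enrichment and ran from −0.010 to 0.14. At VGLL3 0.03 became −0.12 by rank of fold enrichment and −0.010 by rank of −log10 p, and ran from −0.045 to 0.10. At CCN1 0.19 became −0.082 by rank of fold enrichment. That of CCN2 passed when heights were centred on regions at 5′ ends (−0.41) and without vector replicate 1 (−0.52), and that of TEAD3 passed without vector replicate 3 (0.37). Values by rank are in normal scores, so only their sign can be set beside that of the heights. The cause of the changes between settings was not tested.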
